A study of Mus musculus with 2 samples.

Results

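Mir128-1 and Mir128-2 are the mouse genes for the microRNA miR-128, and both lie inside protein-coding genes, Mir128-1 in R3hdm1 and Mir128-2 in Arpp21. They were taken by their names in the GENCODE M21 annotation, and these 2 genes were found among the 2202 microRNA genes counted. Short RNA of the left cerebral cortex was sequenced as microRNA-seq in 2 female mice aged 36 days, with 1 library per mouse. Both mice were B6CASTF1/J hybrids, which carry one set of chromosomes from a CAST parent. The labels give no treatment, mutant allele or transgene, number the animals separately and list them under a single donor code. There was 1 group, so the data give the level of each gene in cortex and how far the 2 mice differed, and no comparison between conditions.

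A microRNA is cut from a hairpin in a longer transcript, and either arm of the hairpin, named 5p or 3p by its side, can be loaded onto an Argonaute protein. Bases 2 to 8 of the loaded arm, the seed, pair with target messenger RNAs and lower their output. miR-128 is known as a brain microRNA that is abundant in neurons, and loss of Mir128-2 in mice is known to raise motor activity and cause seizures. The host genes belong to a family of proteins with an R3H domain, a fold that binds nucleic acid, and Arpp21 is also known as a phosphoprotein of neurons that receive dopamine.

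The mature arms are shown first, since they set which reads can be given to which gene. Seeds are in capitals, and the sequences are those of RefSeq for the GRCm38.p6 build, in which both members were matched by symbol.
miR-128-3p, from both genes: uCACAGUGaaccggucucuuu
miR-128-1-5p, from Mir128-1: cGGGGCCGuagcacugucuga
miR-128-2-5p, from Mir128-2: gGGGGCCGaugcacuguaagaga
The 3p arm, of 21 bases, was the same at both genes. The 5p arms, of 21 and 23 bases, shared their seed but matched at only 16 of 23 aligned positions (69.6%), with a longest common run of 7 bases. No other gene in the table, which held 1738 mature arms, carried either seed at bases 2 to 8.

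The whole hairpins show where reads from the genes can be told apart, with the mature arms in capitals.
Mir128-1 hairpin: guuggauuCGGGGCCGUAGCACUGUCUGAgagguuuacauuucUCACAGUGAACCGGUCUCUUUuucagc
Mir128-2 hairpin: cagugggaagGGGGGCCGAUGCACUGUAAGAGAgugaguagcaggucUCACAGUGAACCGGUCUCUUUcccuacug
The hairpins matched at 55 of 77 aligned positions (71.4%). Their longest common run was 23 bases, which held the 3p arm and 2 bases before it. No base after the 3p arm was shared. Each gene's hairpin had a run of 20 bases in common with 1 other annotated hairpin, that of its partner. A read that fits more than 1 place on the genome was given to no gene, so a read that fits both genes equally is in neither count below, and the number of such reads is unknown. Of all mapped reads of the library, from anywhere on the genome, 50.9% in mouse 1 and 51.2% in mouse 2 fit more than 1 place. The share among reads of microRNA genes is unknown. The counts are per gene and do not tell the arms apart.

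On the mm10 assembly Mir128-1 (ENSMUSG00000065520.2) spans 70 bases of chromosome 1, from 128202361 to 128202430 on the plus strand. It lies 99.1 kb from the start of R3hdm1, in intron 19 of the transcript R3hdm1-201, which has 27 exons. That intron is 14.1 kb long, and the hairpin lies 5.26 kb after the exon before it. Mir128-2 (ENSMUSG00000065441.2) spans 76 bases of chromosome 9, from 112118636 to 112118711 on the minus strand. It lies 117.2 kb from the start of Arpp21, in intron 17 of the transcript Arpp21-201, which has 19 exons. This intron is 51.9 kb long, and the hairpin lies 0.47 kb after the exon before it. Of the annotated transcripts, 2 of 16 for R3hdm1 and 9 of 31 for Arpp21 hold the hairpin in an intron.

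**Figure D1:**
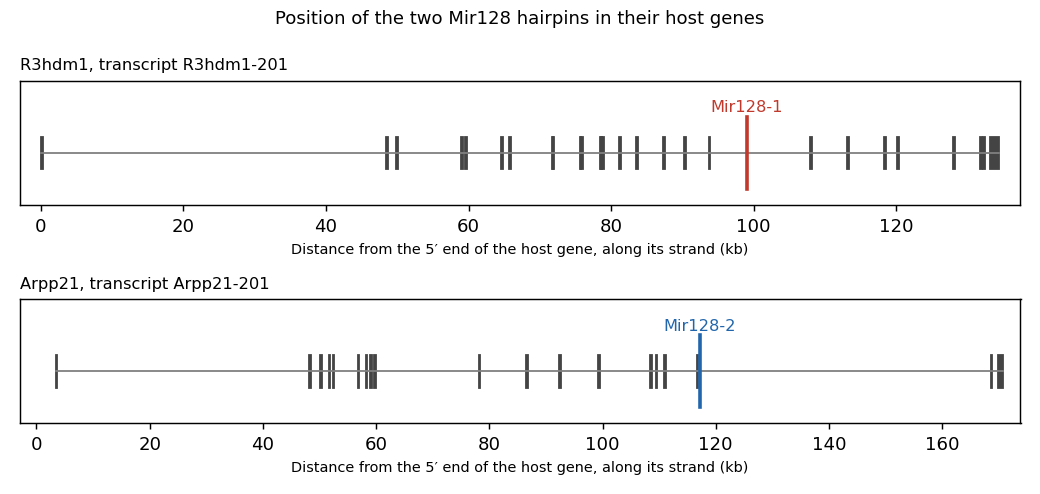
Exons (dark bars, drawn with a minimum width) of R3hdm1-201 and Arpp21-201 against the distance in kb from the 5′ end of the host gene. The coloured line marks the hairpin, 99.1 kb into R3hdm1 for Mir128-1 and 117.2 kb into Arpp21, just after an exon, for Mir128-2.

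The folded hairpins were unalike in predicted stability. The minimum free energy was −29.3 kcal/mol for Mir128-1 and −37.3 kcal/mol for Mir128-2, beside a median of −37.2 kcal/mol and quartiles of −43.1 and −31.1 kcal/mol over the 304 genes that reached 10 CPM (counts per 1000000, defined below) in each mouse and are called detected here. Per base, Mir128-1 stood at −0.419 and Mir128-2 at −0.491 kcal/mol, against a median of −0.437 kcal/mol. The quartiles per base were −0.488 and −0.394 kcal/mol, with Mir128-1 between them and Mir128-2 just past the lower. The GC content was 50% for Mir128-1 and 56.6% for Mir128-2, and the median over detected genes was 50.9%.

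Both genes were read well in cortex, Mir128-1 at the higher level. CPM is the gene's count on its own strand per 1000000 such counts in all microRNA genes, which totalled 1930234 in mouse 1 and 1863876 in mouse 2. Mir128-1 had 31429 counts in mouse 1 and 32017 in mouse 2. These are 16282 CPM (95% Clopper-Pearson interval 16104 to 16462) for the former and 17178 CPM (16992 to 17365) for the latter, a mean of 16730 ± 633 CPM (SD, n = 2) or 1.67% of all counts. Mir128-2 had 7174 counts in mouse 1 and 6140 in mouse 2. These are 3717 CPM (3631 to 3803) and 3294 CPM (3212 to 3378), a mean of 3505 ± 299 CPM (SD, n = 2) or 0.351% of counts. The levels of the 2 genes did not overlap, and within each gene the mice lay close together. Intervals cover counting error within 1 library only. They take each read as an independent molecule, which was not tested.

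By mean CPM, Mir128-1 ranked 13th and Mir128-2 51st of all 2202 genes. In mouse 1 the ranks were 13 and 46, and in mouse 2 they were 12 and 54. On either side of Mir128-1 in that order, Mir126a of endothelial cells (16828 ± 7851 CPM) and Mir433 (16302 ± 3311 CPM), differed from it by less than the spread between the mice, so its place among them is not fixed. The same holds for Mir874, next below Mir128-2 at 3442 ± 91.1 CPM. Among the 734 genes that lie in an intron of a protein-coding gene on the same strand, of which 114 were detected, Mir128-1 ranked 6th and Mir128-2 19th. The median over those 114 was 224 CPM.

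Both genes were read from their own strand alone. The count on the opposite strand was 0 for each gene in each mouse, and a count of 0 leaves room for 3 counts, or a level of 1.55 CPM in the first library and 1.61 CPM in the other. The counts without regard to strand were the same as those on the gene's strand, 31429 and 32017 for Mir128-1 and 7174 and 6140 for Mir128-2. No annotated gene overlaps either hairpin on the opposite strand.

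Mir128-1 gave most of the counts of the pair in both animals. Its share was 81.4% (95% Clopper-Pearson interval 81.0 to 81.8) of 38603 counts in mouse 1 and 83.9% (83.5 to 84.3) of 38157 in mouse 2, a mean of 82.7% ± 1.76 (SD, n = 2). The ratio of Mir128-1 to Mir128-2 counts was 4.38 in mouse 1 and 5.21 in mouse 2. Per base of hairpin, Mir128-1 stood at 233 and 245 CPM and Mir128-2 at 48.9 and 43.3 CPM, so the ratio of levels per length was 4.76 and 5.66. Mir128-1 has the shorter hairpin and had more counts, so dividing by length could not change which gene was higher. These ratios cover reads that map to 1 place, and how reads of the shared arm would divide between the genes was not tested.

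The 2 mice differed little in either gene. With TMM library sizes, Mir128-1 had a log2 ratio of mouse 2 over mouse 1 of 0.03 (95% counting interval 0.01 to 0.05), and Mir128-2 had −0.22 (−0.27 to −0.17), or 1.02-fold and 1.17-fold apart. Neither of the members was at least 2-fold apart, while 63 of the 324 genes with a mean of at least 10 CPM were (19.4%), 46 higher in mouse 2 (14.2%) and 17 higher in mouse 1 (5.25%). The median absolute log2 ratio over those 324 genes was 0.53. In order of size from the smallest, the differences of Mir128-1 and Mir128-2 were the 13th and 73rd of 324. Among the 102 genes at 1000 CPM or more, 2 had a smaller difference than Mir128-1 and 23 had a smaller one than Mir128-2. The common biological coefficient of variation over the 324 genes, a measure of spread between mice beyond counting error, was 0.399 in edgeR. With 1 library per mouse, differences between animals and between library preparations cannot be told apart.

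**Figure D2:**
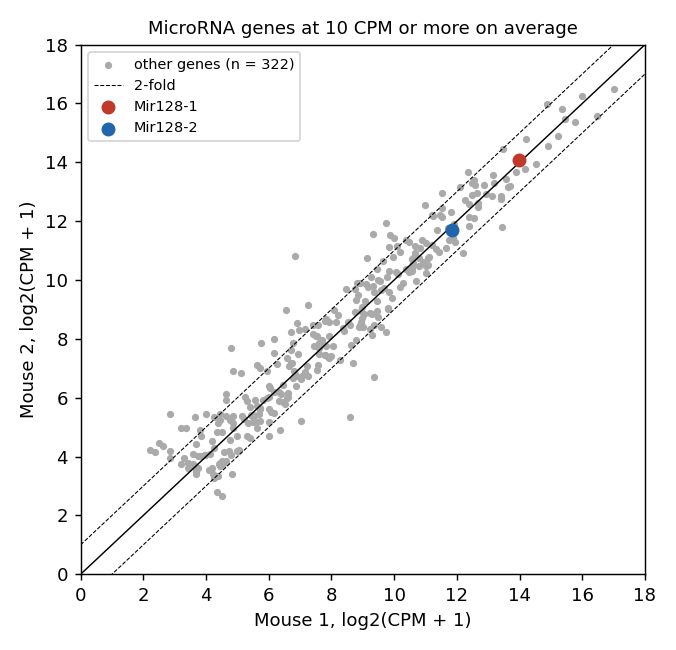
Level in mouse 2 against level in mouse 1, as log2(CPM + 1), for the 324 genes with a mean of at least 10 CPM, each point being 1 gene. The solid line marks equal levels and the dashed lines 2-fold, and both Mir128 genes lie close to the solid line.

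The members' small differences ran in opposite directions, so their ratio was not the same in the 2 libraries. The ratio of Mir128-1 to Mir128-2 counts was 1.19 times as high in mouse 2 as in mouse 1 (95% interval 1.15 to 1.24, adjusted p = 4.91e-19 by a two-sided Fisher's exact test with Benjamini-Hochberg adjustment over 19 pairs). Such a test compares 2 libraries of reads and no condition, and its p-value and interval cover counting error only. It passed for 12 of the 19 pairs of 2-copy microRNA genes (63.2%), so a call is common among them. In CPM, without the TMM factors, the pair summed to 19999 in mouse 1 against 20472 in mouse 2. The mean was 20235 ± 334 CPM (SD, n = 2) or 2.02% of all counts.

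Other microRNAs with 2 gene copies set these values in context. The annotation has 43 pairs of genes whose names end in -1 and -2 with no -3, and 19 of them had at least 10 counts in each copy. Mir128 had the most reads that fit 1 place among the 19 pairs, at 20235 CPM. This was 2.86 times the next, the synaptic microRNA Mir138 (7082 CPM), and 46.1% of the counts of all 19. Reads that fit both copies of a pair are in no count, so the order is not one of whole microRNA levels. All 19 pairs shared a run of at least 20 bases between their hairpins, and 18 shared an identical mature arm. All 18 also had an annotated arm at 1 copy that was not found at the other. At Mir129 and Mir219a there was only 1 such arm, against 2 at Mir128, its 5p arms. Of these 18 pairs, 8 shared no base after that arm, as at Mir128, and the others shared up to 5.

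In counts of reads that fit 1 place, the lean towards a single copy was stronger at Mir128 than the median pair. How reads of a shared arm would divide between the copies was not tested for any pair. The higher copy held a median of 71.1% of the counts over the 19 pairs, from 56.1% at Mir26a to 99.5% at Mir219a, and Mir128 stood 6th at 82.7%. Of the pairs with at least 100 CPM in a copy, Mir16, whose microRNA is widely expressed, was nearest at 82.3% for Mir16-1. Mir129, another neuronal pair, had 73.3% in Mir129-2, and Mir138 had 61.6% in Mir138-1. In 17 of the 19 pairs the same copy was higher in both mice. The ratio between the copies changed between the mice by a median of 0.71 on the log2 scale, against 0.25 for Mir128, and 3 pairs changed less. In 8 of the 19 pairs the copies moved in opposite directions, as the Mir128 genes did.

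**Figure D3:**
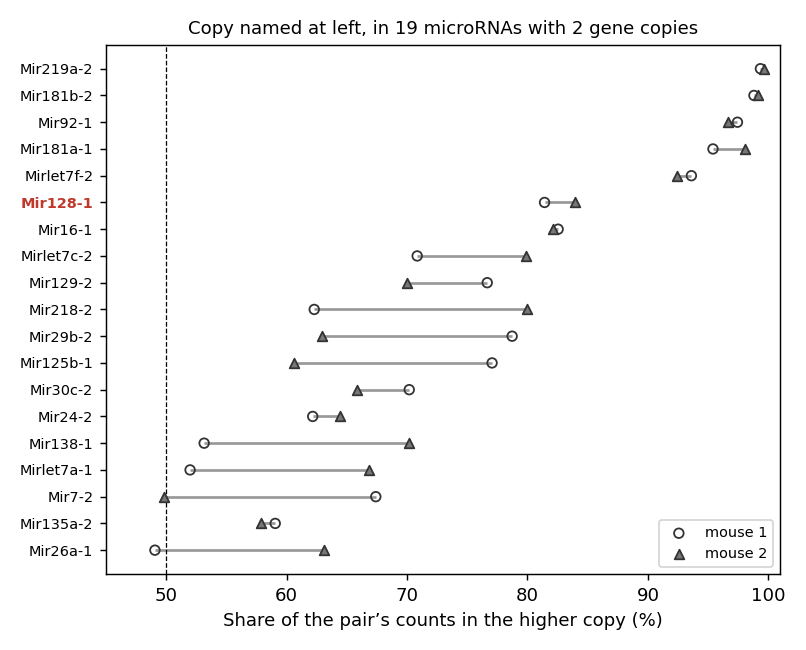
Share of the pair's counts in the higher copy, named at left, in mouse 1 (circles) and mouse 2 (triangles) for 19 microRNAs with 2 gene copies, in order of the mean. Mir128-1, at 81.4% and 83.9%, stands 6th from the top, and the dashed line marks equal copies.

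In counts of reads that fit 1 place, both Mir128 genes stood above the median of 22 other microRNA genes known from neurons. Of this list, 18 were detected at 10 CPM or more, and its median was 323 CPM. Many of the 22 are copies of multi-copy microRNAs, and reads that fit several copies are in no count. The median is therefore not one of whole microRNA levels, nor are the members' values. Among listed genes with no copy number in their names, Mir212 (1147 ± 114 CPM), Mir134 (418 ± 85.1 CPM), Mir153 and Mir488 lay below Mir128-2. Mir139, Mir132, Mir137 and Mir383 lay above it. Above Mir128-1 stood 2 of the 22, Mir139 in an intron of Pde2a (112269 ± 27908 CPM) and the activity-induced Mir132 (47377 ± 24725 CPM). Between the members stood 3 more, Mir137 (7869 ± 2971 CPM), Mir383 in an intron of Sgcz (5176 ± 1067 CPM) and Mir138-1 (4386 ± 1065 CPM). The other intronic genes of the list in protein-coding hosts were lower than both members, among them Mir153 in Ptprn2 at 577 ± 207 CPM, Mir488 in Astn1 at 228 ± 28.7 CPM and Mir218-2 in Slit3 at 109 ± 46.3 CPM.

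Few reads were given to the single genes of the 3-copy neuronal families. Mir9-3, Mir9-1 and Mir9-2 stood at 84.1, 18.5 and 2.36 CPM, and each Mir124a gene had between 1 and 4 counts in a mouse. The copies of each family are known to make the same mature microRNA, and a read that fits several copies is in none of these counts, so they do not give the level of miR-9 or miR-124 in cortex. Of the 18 listed neuronal genes at 10 CPM or more on average, Mir132 alone was at least 2-fold apart, higher in mouse 2. Over all 324 genes at that level, 63 were at least 2-fold apart (19.4%). The median log2 ratio of the 18 was 0.05.

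**Figure D4:**
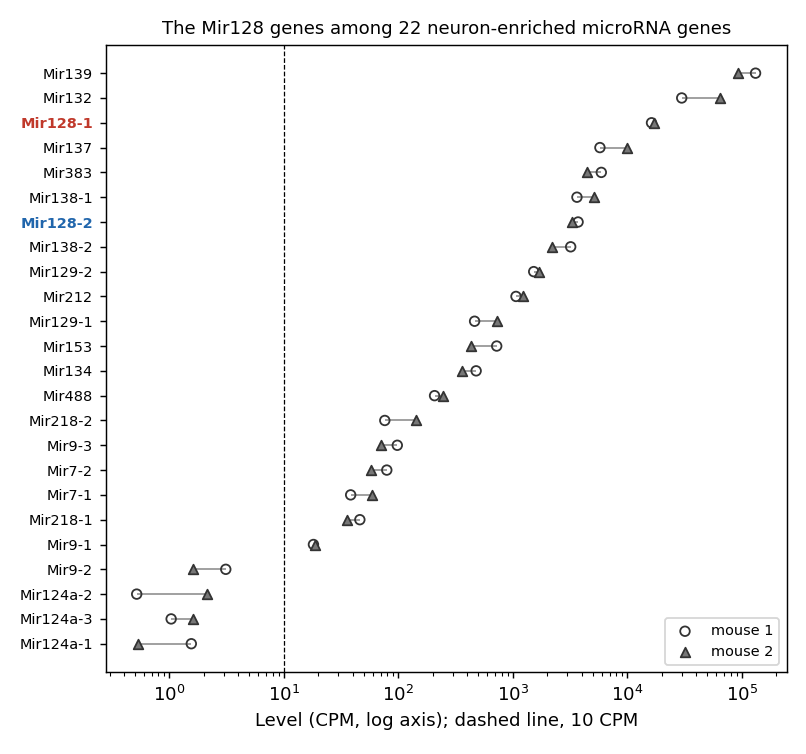
Level in CPM on a log axis of Mir128-1, Mir128-2 and 22 other microRNA genes known from neurons, in mouse 1 (circles) and mouse 2 (triangles). Genes are in order of mean CPM, in which Mir128-1 comes next after Mir139 and Mir132.

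Genes known from other cell types of cortex were also read, and some differed more between the mice than the Mir128 genes did. The summed level of the neuronal list was 185253 CPM in mouse 1 against 184185 in mouse 2, but its leading genes differed in opposite directions, Mir139 with 132003 against 92535 CPM and Mir132 with 29894 against 64860 CPM. Endothelial Mir126a and Mir126b summed to 11276 and 22380 CPM, with Mir126b at 0. Mural Mir143 and Mir145a summed to 4589 and 9464 CPM, and the 3 oligodendrocyte genes Mir219a-1, Mir219a-2 and Mir338 to 2756 and 5128 CPM. The 3 leukocyte genes summed to 1585 and 1412 CPM, mostly Mir150 (1531 and 1264 CPM), while Mir142 was higher in mouse 2 (48.2 and 137 CPM), as was Mir223 (5.70 and 11.8 CPM). The 3 red cell genes summed to 742 and 153 CPM. The 5 choroid plexus and epithelial genes summed to 742 and 680 CPM, mostly Mir204 (489 and 495 CPM), while Mir200b was lower in mouse 2 (129 and 35.9 CPM) and Mir429 higher (99.0 and 135 CPM). In tissue RNA, fewer cells of a type and less RNA per cell cannot be told apart, and the part of cell makeup in the members' levels was not tested.

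The genes closest to the members in level over both mice were found by distance on the log2(CPM + 1) scale. For Mir128-1 they were Mir433 (18643 and 13961 CPM in mouse 1 and mouse 2), Mir328 (15071 and 13145 CPM) and Mir23b (23745 and 15757 CPM). For Mir128-2 they were Mir874 in an intron of Klhl3 (3378 and 3507 CPM), Mir361 in an intron of Chm (3887 and 3873 CPM) and Mir485 (3750 and 2785 CPM). With 2 mice these are genes of like level, and no pattern across conditions is behind the choice.

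The Mir27 genes carry the opening bases of miR-128-3p in their own 3p arms. These arms are shown with the 8 shared bases, UCACAGUG, in capitals, here moved along by 1 position.
miR-27a-3p: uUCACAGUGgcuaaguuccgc
miR-27b-3p: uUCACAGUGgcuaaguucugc
Those 8 bases stood in 7 of 1738 mature arms (0.403%), the other 3 being arms of Mir101a, Mir682 and Mir3073b, where they begin between bases 5 and 8. Mir27b had 1096 CPM in mouse 1 against 2307 in mouse 2, and Mir27a had 109 against 233 CPM. Both Mir27 genes lay below both Mir128 genes in each mouse and were higher in mouse 2, with log2 ratios of 1.03 and 1.05 against 0.03 and −0.22. Mir101a stood at 187 ± 11.8 CPM, and Mir682 and Mir3073b had no counts. Shared letters are a description of the sequences, and no target was measured.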

How the data were processed

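MicroRNA-seq libraries of left cerebral cortex from 2 mice were used, 1 per mouse. The deposited values were whole-number read counts per gene, not normalized, on mm10 with GENCODE M21 per the README notes; the aligner, counter and adapter trimming are not given in the sources used here. No file has a header, and the 3 columns were read from the values as unstranded, sense and antisense counts. The lines that name no gene (unmapped, at several places, in no gene) held 72.7% and 70.2% of reads and were left out. All 2202 identifiers matched M21.

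From the sense counts, CPM was computed over each library's total, and log2 ratios used TMM factors of 0.983 and 1.02 (edgeR 4.0.16, intercept-only design). DESeq2 1.42.0 gave an alternative scaling. A gene at 10 CPM in both mice was called detected, and a gene at least 2-fold apart was called apart. Copy ratios were tested with Fisher's exact test, and hairpins were folded with RNAfold 2.7.2. The labels number the animals separately, so the libraries were counted as 2 mice. Their counts differed beyond sampling noise (chi-square per degree of freedom 244.7), so they were not taken for repeat deposits of 1 library, which does not show that they came from different animals. Hybrid reads that differ from mm10 may have been lost, which was not tested. The named genes were the members, their hosts, the 3 nearest genes in level to each, pairs with 100 CPM in a copy, seed relatives, the neuronal list, the cell-type markers and the most abundant gene. The members and lists were chosen with earlier results of these data known. Levels under other column, denominator, scaling and filter choices are in the closing section.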

Additional observations from a re-analysis of the deposited data

How the results depend on the processing

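No paired analysis was possible because the labels give 1 group, with no second group to pair by replicate number. Mir128-1 was higher than Mir128-2 under every alternative run. No run changed the counts of either gene, and the shorter hairpin had more counts, so this order could not turn. Reads that fit several places stayed out of all runs. Neither gene was 2-fold apart between the mice under any scaling, and library sizes this alike could not have made it so. Mir128-1 stood at 18080 CPM with the unstranded column, 6790 per 1000000 mapped reads and 18844 CPM without Mir139 in the total; Mir128-2 stood at 1421 per 1000000 mapped reads and 3956 CPM without Mir139. Only the denominators differ in these. Mir128-1 ranked 11th with the unstranded column and 12th per base of hairpin, and Mir128-2 ranked 44th per base. Leaving out a mouse gave 16282 to 17178 CPM and rank 12 to 13 for Mir128-1, 3294 to 3717 CPM and rank 46 to 54 for Mir128-2, and a share of 81.4% to 83.9% for Mir128-1. The log2 ratio of Mir128-1 was 0.071 with the unstranded column and 0.077 with total counts, by the construction of the scaling. The number of genes at least 2-fold apart was 143 of 563 with no filter, 36 of 207 at 100 CPM and 146 of 324 at 1.5-fold, and the number detected was 485 at 1 CPM and 197 at 100 CPM. Ratios between mice rest on 1 library each, which depth cannot mend.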
